A study of Homo sapiens with 2 samples.

Results

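The genes described here encode the translation initiation and elongation factors, the proteins that start and extend polypeptide synthesis on the cytosolic ribosome. They were taken from a gene count table as all protein-coding genes whose symbols begin with EIF or EEF followed by a digit, with EIF1AY left out. The rule found 64 genes among the 44591 in the table, of which 19233 are protein coding. It uses names alone and no measured value. It takes in 11 kinases, methyltransferases and binding proteins that carry an EIF or EEF name without being a subunit of a factor.

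The counts came from poly(A)-selected RNA of 2 established cell lines of human hepatocellular carcinoma, MHCC97H, labelled as having high spontaneous metastatic potential, and MHCC97L, labelled as having low potential. Both are labelled wild type (WT), and both were grown in DMEM with 10% fetal bovine serum. The title of the series gives its aim as a search for RNA-binding protein genes related to metastasis. Each line had 1 library, with 28967153 counted reads in MHCC97H and 24964246 in MHCC97L, so the differences have no replicate check and set these libraries, not the lines as conditions, against each other.

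Translation starts when initiation factors load the initiator tRNA on the small ribosomal subunit, recruit that subunit to the capped end of the mRNA and scan to the start codon. Elongation factors then bring each aminoacyl-tRNA to the ribosome and move the ribosome along. The mRNAs of several elongation factors and of the ribosomal proteins belong to a class that opens with a terminal oligopyrimidine (TOP) tract. This is a C followed by a run of C and T at the very first bases. The translation of these mRNAs is regulated through mTOR and the protein LARP1. In liver cancer, as in other tumours, the cap-binding arm of initiation (EIF4E and its partners) is a known target of growth signalling.

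Of the hepatocyte and hepatocellular carcinoma markers looked up, KRT8 was at 8075 CPM (read counts scaled to a common library size) in MHCC97H and 9060 in MHCC97L, KRT18 at 5275 and 4870, and SERPINA1 at 5800 and 8422. The transcription factor HNF4A was at 80.8 CPM in MHCC97H and 96.6 CPM in MHCC97L. Of other secreted products, TTR was at 44.9 CPM in MHCC97H and 70.4 CPM in MHCC97L, whereas ALB was near 0 at 1.85 and 5.57 CPM, and AFP at 0.390 and 0.978 CPM. Reads on the leukocyte gene PTPRC numbered 1 in MHCC97H and 0 in MHCC97L, and those on the endothelial gene PECAM1 1 and 3. Another leukocyte marker, CD68, had 233 reads in MHCC97H and 148 in MHCC97L, or 7.58 and 6.29 CPM. Of the fibroblast and stellate markers, COL1A1 was at 9.20 CPM in MHCC97H and 7.82 in MHCC97L. COL3A1 was at 5.11 and 5.95 CPM and PDGFRB at 2.18 and 4.76, while DCN and LUM stayed under 1 CPM in both. Base composition moved with the ratio in the whole table. Over 13856 genes the ratio of MHCC97H to MHCC97L was lower for genes of higher GC content (Spearman correlation -0.64, a description across genes that share both libraries).

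Most initiation factor mRNAs were somewhat more abundant in the MHCC97H library, and the mRNAs of the main elongation factors were less abundant there. Of the 64 genes, 62 reached 1 CPM in at least 1 library, and these are compared below. EIF4E1B, a cap-binding paralog, had 0 reads in either library, which allows up to 3 reads. EIF5AL1, a close copy of EIF5A, had 21 reads in MHCC97H and 7 in MHCC97L. Factor reads were 2.80% of all reads in MHCC97H, with an exact 95% interval of 2.79 to 2.80, and 3.03% in MHCC97L (3.03 to 3.04). Initiation factors took 1.12% of the MHCC97H library and 0.934% of the MHCC97L library, whereas elongation factors took 1.67% of the MHCC97H library and 2.1% of the MHCC97L library.

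A gene was counted as higher or lower where its fold difference reached 2 or 1.5 and its 95% counting interval (exact Clopper-Pearson, for the split of its reads between the libraries) excluded equal expression. At least 2-fold higher in the MHCC97H library were 2 of the 62 factors, EIF1AX and EIF4E, beside 7.06% of all 14578 genes kept. None was at least 2-fold lower, beside 4.65% of all genes. At 1.5-fold, 13 factors were higher, which is 21.0% of them beside 19.3% of all genes, and 5 were lower, or 8.06% beside 13.8% of all genes. All 13 higher genes carry EIF names, 11 of them for factor subunits and the other two, EIF2AK2 and EIF2AK3, for kinases of eIF2. Of the 5 lower genes, 4 were elongation factors. These shares lie near those of all genes, so the counts alone do not set the factors apart. With total counts in place of TMM scaling, which moved all ratios up by 0.17 on the log2 scale, 17 factors were higher and 0 lower at 1.5-fold, beside 26.9% and 8.34% of all genes.

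The median log2 ratio of MHCC97H over MHCC97L was 0.14 over the 62 factors and 0.03 over all genes kept. Among the 52 initiation factors it was 0.23, with 34 above 0 and 18 below. Among the 10 elongation factor genes it was -0.36, with 3 above 0 and 7 below. Over all 14578 genes kept, 7491 ratios were above 0 and 7087 below. Counting intervals lay above 0 for 35 of the 62 factors and below 0 for 19, and they included 0 for 8. Over all 14578 genes the intervals lay above 0 for 5464 and below 0 for 5142, and they included 0 for 3972. These intervals cover counting error only. Since reads copied by PCR carried no molecular identifiers and need not be separate molecules, even that error may be understated. In bulk RNA, fewer cells expressing a gene and less of its RNA per cell cannot be told apart.

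**Figure D1:**
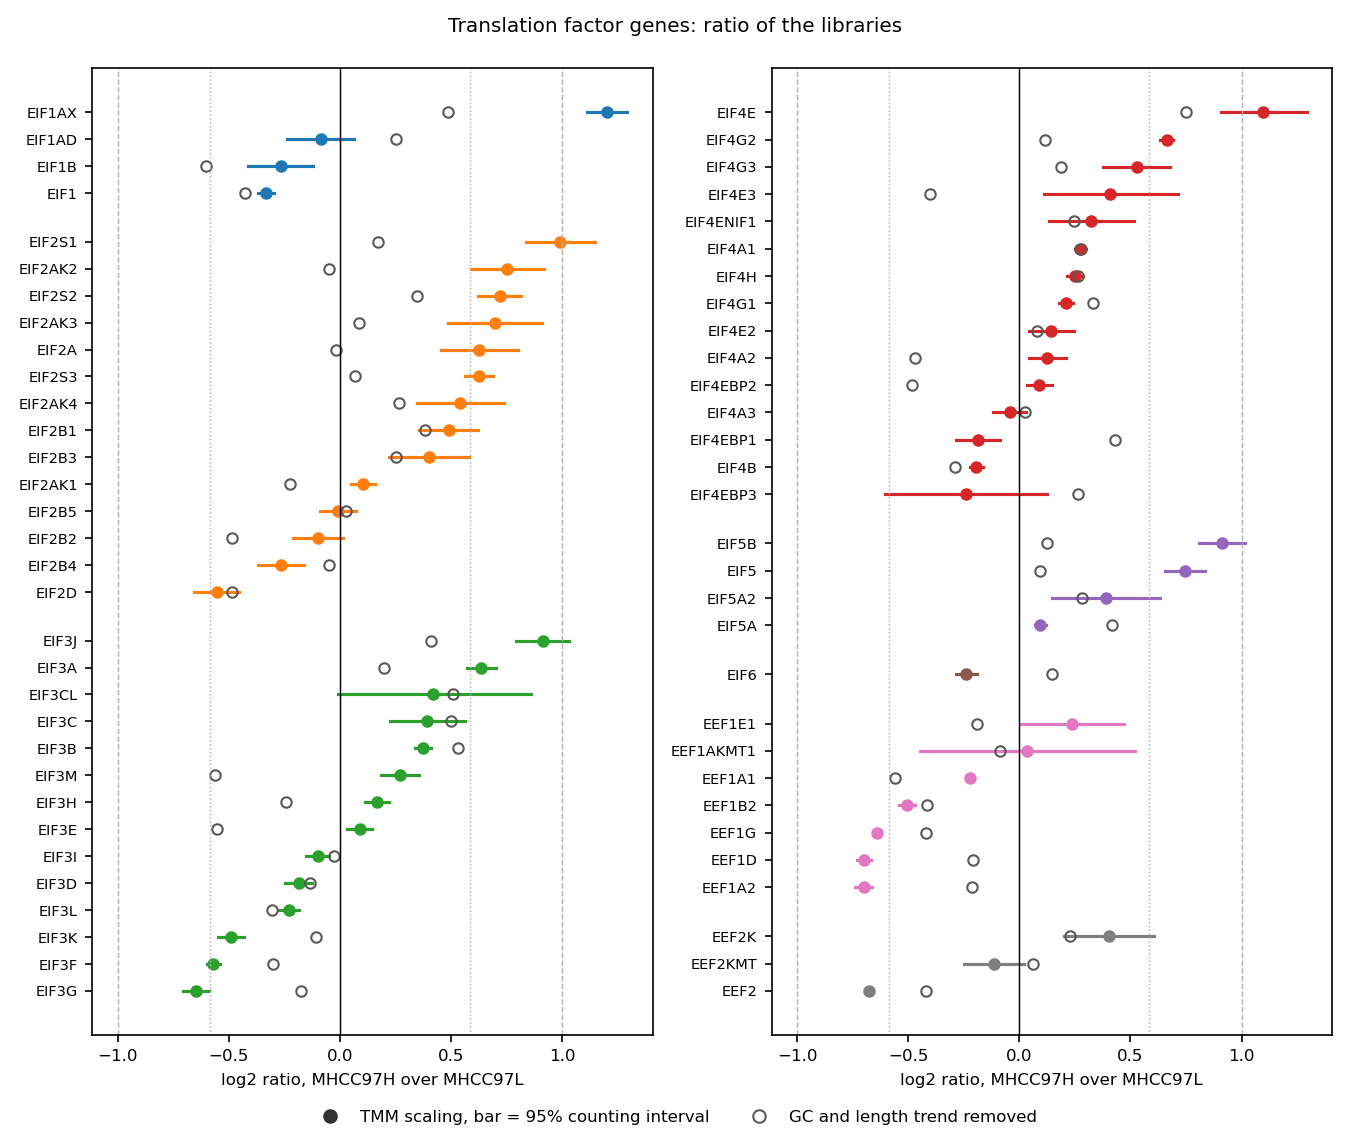
Log2 ratio of MHCC97H over MHCC97L for each of the 62 factors kept, by complex. Filled points show the ratio after TMM scaling with its 95% counting interval, open circles the ratio after the trend with transcript GC content and length was removed, and dotted and dashed lines 1.5-fold and 2-fold. EIF1AX and EIF4E lie beyond 2-fold, the filled points of EEF1A1, EEF1B2, EEF1D, EEF1G, EEF1A2 and EEF2 lie below 0, and most open circles lie nearer 0 than the filled points.

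GC content moved with these ratios. Across the 62 factors, whose transcripts ran from 37.2% to 66.4% GC, the Spearman correlation of the log2 ratio with GC content was -0.65, close to the -0.64 over all genes. With the 10 elongation factor genes left out it was -0.62. For transcript length it was 0.48 over the factors and 0.32 over all genes. EIF2S1 and EIF5B, both high in MHCC97H, have 37.7% and 39.2% GC, and EEF1A2 and EEF1D, both low, have 66.4% and 62.8%. Ratios are therefore also given after a smooth trend with GC content and length, fitted over all genes, was removed. That step took the standard deviation of the log2 ratio over all genes to 0.54, against 0.68 before it. Whether the trend arose in the libraries or in the cells was not tested.

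With the trend removed, 1 factor stayed at least 1.5-fold higher, EIF4E, beside 8.35% of all genes, and 1 was lower, EIF1B, beside 9.39%. None reached 2-fold, beside 2.42% of all genes higher and 3.47% lower. The median of the factors was then 0.04, that of the initiation factors 0.09 and that of the elongation factors -0.21. When the trend was fitted on the longest transcript of each gene in place of the median over transcripts, a choice made after the data were seen, EIF3B was higher at 1.5-fold (log2 ratio 0.60), beside 8.45% of all genes. In that fit EIF3F was lower (-1.26), beside 9.92% of all genes at 1.5-fold and 3.7% at 2-fold. None was 2-fold higher, beside 2.32% of all genes, and neither EIF4E nor EIF1B passed 1.5-fold.

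**Figure D2:**
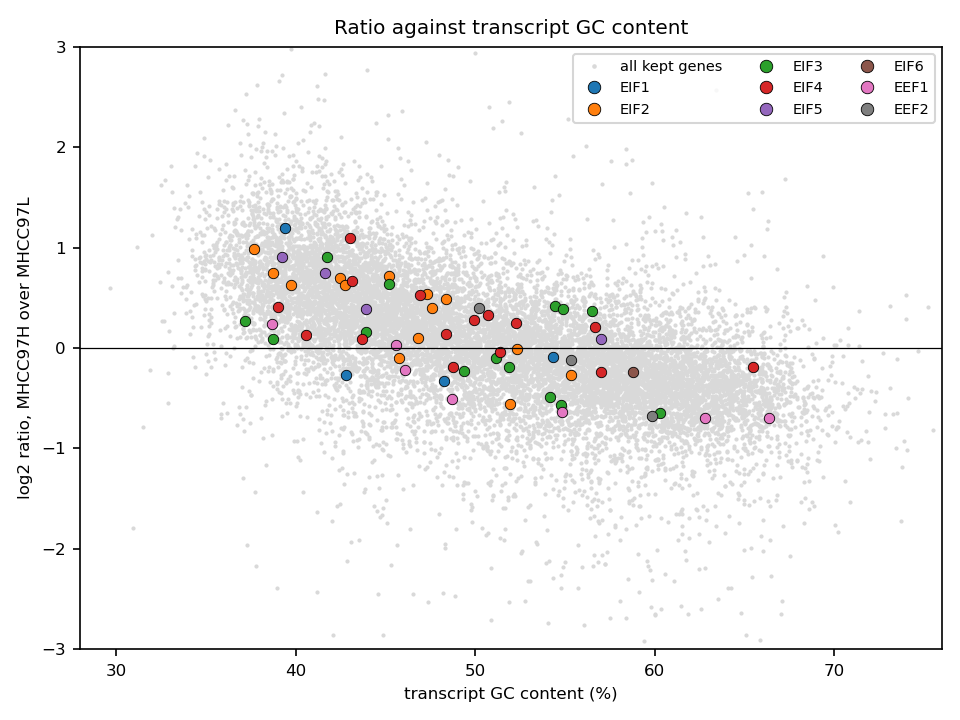
Log2 ratio of MHCC97H over MHCC97L against transcript GC content in percent, with all genes kept in grey and the 62 factors coloured by complex. Points beyond a log2 ratio of 3 in either direction are not drawn. The factors slope downward with the grey cloud, with Spearman correlations of -0.65 and -0.64.

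The first bases of the factor genes are shown because they hold the tract that defines the TOP class. The windows run from 10 bases before the annotated start to 20 bases from it, so the eleventh letter is the first transcribed base. They come from RefSeq on GRCh38.p14 and are written 5′ to 3′ on the transcript strand. Capitals mark a C within 3 bases of the start followed by at least 4 bases that are each C or T, searched on the transcript strand alone. That motif was set after the sequences were seen. The first 6 genes are known TOP genes, and the last 5 are initiation factors higher in MHCC97H.
EEF1A1: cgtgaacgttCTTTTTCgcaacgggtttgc
EEF1B2: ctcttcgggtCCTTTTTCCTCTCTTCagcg
EEF2: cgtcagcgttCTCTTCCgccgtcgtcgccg
EIF3F: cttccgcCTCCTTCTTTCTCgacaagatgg
EIF4B: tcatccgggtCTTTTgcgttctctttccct
EEF1G: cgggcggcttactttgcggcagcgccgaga
EIF1AX: gagtcgcggcgccatttgctgccgccgagc
EIF4E: tggagcggttgtgcgatcagatcgatctaa
EIF2S1: gaggttccgcatgcgcggtggagtgagcga
EIF5B: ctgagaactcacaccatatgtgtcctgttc
EIF3J: ccgccgtgctaaCTCCTCgctagctctccc

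These windows lie at chr6:73521013-73521042 on the minus strand for EEF1A1, chr2:206159885-206159914 on the plus strand for EEF1B2 and chr19:3985444-3985473 on the minus strand for EEF2. Those of EIF3F and EIF4B lie on the plus strand at chr11:7987327-7987356 and chr12:53006446-53006475, and that of EEF1G on the minus strand at chr11:62573872-62573901. EIF1AX and EIF4E lie on the minus strand at chrX:20141819-20141848 and chr4:98929114-98929143. EIF2S1, EIF5B and EIF3J lie on the plus strand at chr14:67360318-67360347, chr2:99337379-99337408 and chr15:44537137-44537166. For EEF1B2 RefSeq lists 2 starts, and the one with the run is shown. Of the highest factors printed, EIF3J also has such a run, and the EEF1G window has none, so the letters do not divide these genes by their ratio.

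Over the 9674 protein-coding genes kept that have a start window, 17.4% held the run. It was present in 52 of 63 ribosomal protein genes (82.5%), in 5 of 6 factors on the TOP list and in 12 of 43 other factors (27.9%). The median log2 ratio was 0.09 over the 17 factors with the run and 0.35 over the 32 without it, and -0.29 and 0.18 with the trend removed. These pooled sets include the TOP list. Outside it the medians were 0.18 over the 12 factors with the run and 0.37 over the 31 without it. Below 0 were 3 and 10 of these factors, and their medians were -0.06 and 0.19 with the trend removed. Among genes that are neither factors nor ribosomal protein genes, the medians were 0.05 with the run and 0.10 without it. A match of letters is no evidence that the mRNA starts there in these cells.

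Among the start-site scanning factors, EIF1AX stood far above its partners. EIF1AX, which encodes the eIF1A protein that helps the small subunit scan to a start codon, had 4003 reads in MHCC97H and 1333 in MHCC97L. That is 130.2 CPM in MHCC97H against 56.7 CPM in MHCC97L, a 2.30-fold higher level (2.16 to 2.45), or 1.2 on the log2 scale and 0.49 with the trend removed. It had the highest ratio of all 62 factors. The EIF1AX pseudogene counted separately had 207 reads in MHCC97H and 57 in MHCC97L, 4.92% and 4.10% of the pair's reads, so a part of the reads may have been split between near-identical copies.

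EIF1, which guards against initiation at wrong codons, went the other way, with 422 CPM in MHCC97H and 532 CPM in MHCC97L and a log2 ratio of -0.33 (-0.43 with the trend removed). Its close paralog EIF1B was at 25.6 CPM in MHCC97H and 30.8 CPM in MHCC97L, a log2 ratio of -0.27, or -0.60 with the trend removed. EIF1B made up 5.71% of the reads of the pair in MHCC97H and 5.47% in MHCC97L, with overlapping exact intervals of 5.33 to 6.11 and 5.09 to 5.87. EIF1AD, a protein with an eIF1A-like domain, was at 25.6 CPM in MHCC97H and 27.2 CPM in MHCC97L, with an interval that included equal expression and a log2 ratio of -0.09 (0.25 with the trend removed).

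All 3 subunits of eIF2, the GTPase that carries the initiator tRNA to the ribosome, were at least 1.5-fold higher in the MHCC97H library. Over all genes, 19.3% were that much higher. EIF2S1, the alpha subunit that stress kinases phosphorylate, had 1200 reads in MHCC97H and 462 in MHCC97L, or 39.0 CPM against 19.6 CPM. Its 1.99-fold difference (1.78 to 2.22) was just short of the 2-fold threshold. EIF2S2, the beta subunit, was at 89.3 CPM in MHCC97H and 54.3 CPM in MHCC97L, 1.64-fold higher (1.54 to 1.76). The gamma subunit EIF2S3, which binds GTP and the tRNA, was at 205 CPM in MHCC97H and 133 CPM in MHCC97L, 1.54-fold higher (1.48 to 1.61). Removing the trend left log2 ratios of 0.17, 0.34 and 0.07 in that order, all above 0 and none at 1.5-fold. Together the subunits took 0.0354% of reads in MHCC97H and 0.0195% in MHCC97L.

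The exchange factor eIF2B, which reloads eIF2 with GTP, showed no such shift as a whole. The log2 ratios of its 5 subunits were 0.49 for EIF2B1, 0.40 for EIF2B3, -0.01 for EIF2B5, -0.10 for EIF2B2 and -0.27 for EIF2B4. With the trend removed they were 0.38, 0.25, 0.03, -0.48 and -0.05 in that order. The intervals of EIF2B5 and EIF2B2 included equal expression. EIF2B5, the catalytic subunit, had 93.8 CPM in MHCC97H and 94.5 CPM in MHCC97L. Within the complex the ratios therefore spread over both sides of 0, around a median of -0.01 (0.03 after the trend was removed).

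The kinases that phosphorylate EIF2S1 under stress were higher in MHCC97H in 4 of 4 cases, by amounts that reached 1.5-fold for a pair of them. Of all genes, 19.3% were at least 1.5-fold higher. EIF2AK2, known as PKR, the sensor of double-stranded RNA, was at 31.5 CPM in MHCC97H and 18.7 CPM in MHCC97L, 1.68-fold higher (1.5 to 1.89). EIF2AK3, known as PERK, the sensor of endoplasmic reticulum stress, was at 18.8 CPM in MHCC97H and 11.6 CPM in MHCC97L, 1.62-fold higher (1.40 to 1.88). EIF2AK4, known as GCN2, the sensor of uncharged tRNA, had a log2 ratio of 0.54. The heme-regulated kinase EIF2AK1 had the highest level of the 4, at 201.6 CPM in MHCC97H and 187.7 CPM in MHCC97L, with a log2 ratio of 0.10. Once the trend was removed, EIF2AK2 was at -0.05, EIF2AK3 at 0.08, EIF2AK4 at 0.26 and EIF2AK1 at -0.23, so the shared direction did not remain.

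EIF2A and EIF2D, which can place tRNA on the ribosome without eIF2, parted from each other. EIF2A, a separate protein from the alpha subunit of eIF2, was at 26.6 CPM in MHCC97H and 17.2 CPM in MHCC97L, 1.54-fold higher (1.37 to 1.74), but at -0.02 on the log2 scale with the trend removed. EIF2D was at 46.9 CPM in MHCC97H and 69.0 CPM in MHCC97L, the lowest ratio of the EIF2 genes at -0.56, and -0.49 with the trend removed. Over the 14 EIF2 genes, 6 (42.9%) were at least 1.5-fold higher, beside 19.3% of all genes, and none was lower, beside 13.8%. None of the 14 passed 1.5-fold with the trend removed. The median was 0.51, or 0.05 without the trend.

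The eIF3 complex, the scaffold that joins the small subunit to the mRNA, was split among its subunits. Of 14 genes, 2 (14.3%) were at least 1.5-fold higher, EIF3J and EIF3A, and 1 (7.14%) was lower, EIF3G, shares below the 19.3% and 13.8% of all genes. None of these 3 calls remained with the trend removed. There were 8 ratios above 0 and 6 below. The median was 0.13, and -0.12 with the trend removed, so its sign turned with that step. EIF3J, a loosely bound subunit that takes part in ribosome recycling, was at 64.1 CPM in MHCC97H and 34.1 CPM in MHCC97L, 1.88-fold higher (1.73 to 2.04) and 0.41 on the log2 scale with the trend removed. EIF3G, which binds the RNA and works with scanning, was at 143 CPM in MHCC97H and 224 CPM in MHCC97L, a log2 ratio of -0.65 (-0.71 to -0.59) and -0.18 with the trend removed.

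Within the eIF3 core of 9 genes, EIF3A had the highest ratio and EIF3F the lowest. EIF3A, the largest core subunit and a platform for assembly, was at 185 CPM in MHCC97H and 119 CPM in MHCC97L, 1.55-fold higher (1.48 to 1.63), or 0.64 on the log2 scale and 0.20 with the trend removed. EIF3F, a core subunit with an MPN domain, was at 649.6 CPM in MHCC97H and 964 CPM in MHCC97L, a log2 ratio of -0.57. With the trend removed EIF3F was at -0.30, or at -1.26 when its longest transcript was used, so its size rests on that choice. Pseudogenes of EIF3F had 777 reads in MHCC97H and 829 in MHCC97L, 3.74% and 3.53% of the combined reads.

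The other core subunits lay between these. EIF3K was at -0.49 and EIF3L at -0.23 on the log2 scale (-0.11 and -0.31 with the trend removed), and EIF3E, EIF3H and EIF3M were at 0.09, 0.16 and 0.27. The last 3 turned, with the trend removed, to -0.55, -0.24 and -0.57. EIF3C, which binds EIF1 and EIF5, was at 0.39 (0.50 with the trend removed) with 795 reads in MHCC97H and 463 in MHCC97L. Its near-identical copy EIF3CL had 126 reads in MHCC97H and 72 in MHCC97L, and both are uncertain because reads can be split between them. EIF3CL made up 13.7% of the pair in MHCC97H and 13.5% in MHCC97L. Of the peripheral subunits, EIF3B, an RNA-binding scaffold, had a log2 ratio of 0.37 with 547 CPM in MHCC97H and 423 CPM in MHCC97L, and EIF3I and EIF3D were at -0.10 and -0.19. Without the trend EIF3B was at 0.53, EIF3I at -0.03 and EIF3D at -0.14.

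Levels of the core subunits per kilobase of transcript also differed widely, although the proteins assemble in equal numbers. In CPM per kilobase, the core genes ran from 1.34 for EIF3CL to 518 for EIF3F in MHCC97H, with a median of 107, and from 0.997 to 769 in MHCC97L, with a median of 95.8. EIF3C was at 8.27 in MHCC97H and 6.29 in MHCC97L on this scale, low for a core subunit, and the uncertainty of its counts holds here too. The highest and lowest genes were the same in both libraries.

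In the cap-binding arm, EIF4E had the highest ratio. EIF4E binds the mRNA cap and limits cap-dependent initiation in many cells. It had 839 reads in MHCC97H and 300 in MHCC97L, or 27.3 CPM against 12.8 CPM, 2.14-fold higher in MHCC97H (1.87 to 2.45). On the log2 scale this was 1.10, with 0.75 after removal of the trend but 0.31 when the longest transcript was used. Its paralog EIF4E2, a cap-binding repressor, was at 62.2 CPM in MHCC97H and 56.3 CPM in MHCC97L, a log2 ratio of 0.14 (0.08 with the trend removed). EIF4E3, an atypical member of the family, was at 8.20 CPM in MHCC97H and 6.17 CPM in MHCC97L, a ratio of 0.41 that was -0.40 with the trend removed.

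Shares within a family do not depend on the scaling between libraries. They are not corrected for the trend with GC content and length, and in some families the order of the ratios turned once it was removed. EIF4E made up 27.9% of the reads of the 3 cap-binding genes in MHCC97H (26.3 to 29.6) and 17.0% in MHCC97L (15.2 to 18.8), and these intervals did not overlap. EIF4E2 made up 63.7% in MHCC97H and 74.8% in MHCC97L, and EIF4E3 8.39% and 8.20%. Per transcript length, EIF4E had 34.4% of the family in MHCC97H and 21.4% in MHCC97L. The cap-binding genes were the family whose makeup differed most in percentage points among the 8 paralog families examined, though the members differ in GC content and that part was not tested.

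**Figure D3:**
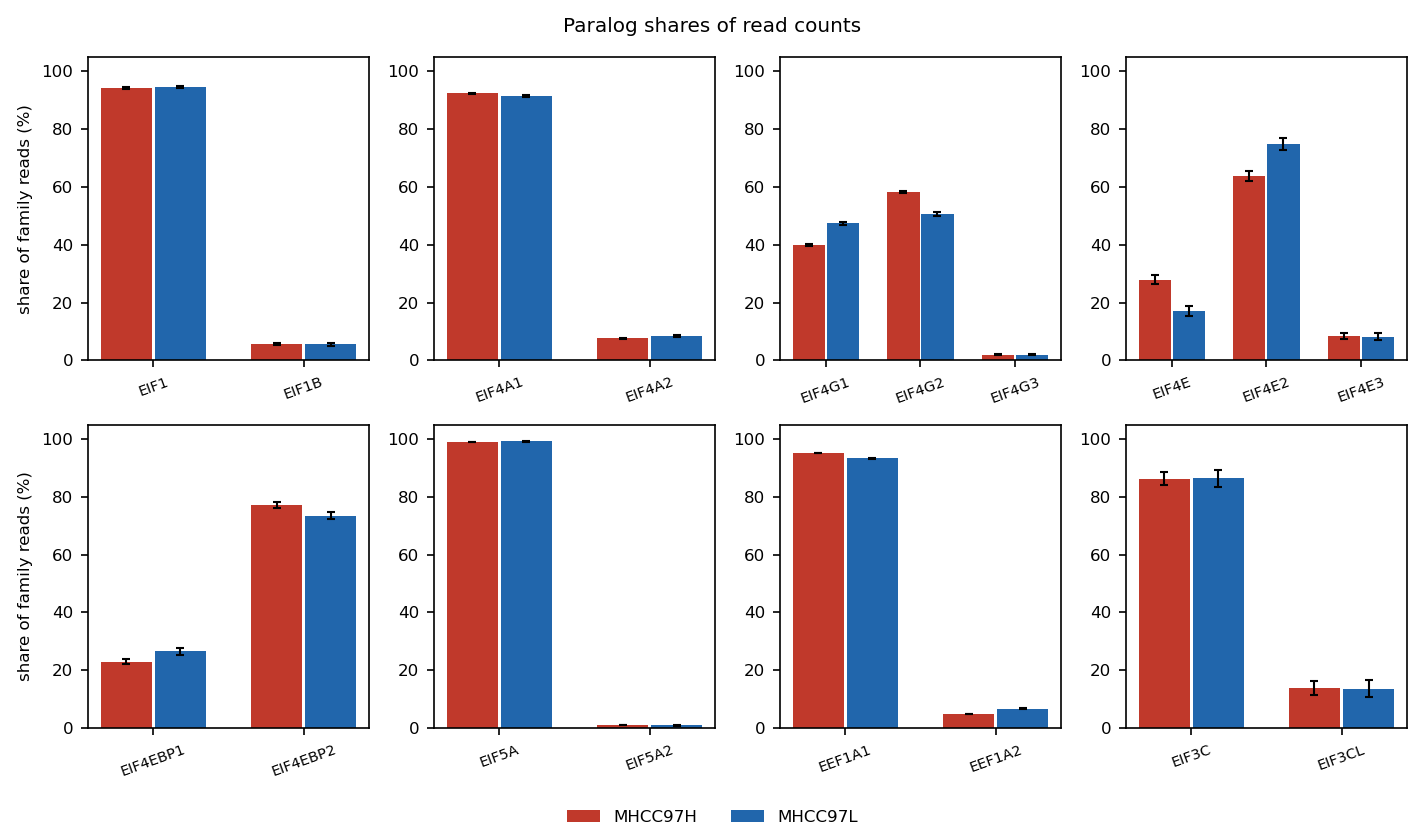
Share of the reads of a paralog family taken by each member, in percent, for 8 families, with MHCC97H in red and MHCC97L in blue and exact 95% binomial intervals as error bars. EIF4E took 27.9% of its family in MHCC97H against 17.0% in MHCC97L, and EIF4G2 58.2% against 50.7%, while EIF1B and EIF3CL had overlapping intervals. The shares are not corrected for the trend with GC content and length.

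Among the eIF4G scaffolds, which link the cap-binding protein to the helicase and to eIF3, all 3 ratios were above 0, also with the trend removed. EIF4G2, also known as DAP5, lacks the site for EIF4E and serves forms of initiation that do not need it. It had 30825 reads in MHCC97H and 14888 in MHCC97L, or 1003 CPM against 633 CPM, 1.58-fold higher (1.55 to 1.62) and 0.12 on the log2 scale with the trend removed. EIF4G1, the main scaffold, was at 686 CPM in MHCC97H and 593 CPM in MHCC97L, a log2 ratio of 0.21 (0.33 with the trend removed). EIF4G3 was at 33.7 CPM in MHCC97H and 23.4 CPM in MHCC97L, a ratio of 0.53 (0.19). EIF4G2 took 58.2% of the family in MHCC97H and 50.7% in MHCC97L, and EIF4G1 39.8% and 47.4%, with intervals that did not overlap. With the trend removed the order of their ratios turned, with EIF4G2 (0.12) below EIF4G1 (0.33).

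None of the helicases and their cofactors reached 1.5-fold. EIF4A1, the RNA helicase that unwinds the mRNA leader, was at 1100 CPM in MHCC97H and 908 CPM in MHCC97L, a log2 ratio of 0.28 (0.27 with the trend removed). Its paralog EIF4A2 was at 90.2 CPM in MHCC97H and 82.6 CPM in MHCC97L, a log2 ratio of 0.13 that turned to -0.47 with the trend removed, and took 7.57% of the pair's reads in MHCC97H and 8.34% in MHCC97L. EIF4A1 and EIF4A2 both hold annotated small RNA genes and overlap 5 and 8 other genes, so their counts may include reads of others. The cofactors EIF4H and EIF4B were at 0.25 and -0.19 (0.27 and -0.29 with the trend removed), and EIF4A3, a helicase of the exon junction complex, at -0.04 (0.02) with an interval that included 0.

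None of the proteins that bind EIF4E and hold it back reached 1.5-fold. EIF4EBP1, the mTOR-regulated repressor, was at 56.0 CPM in MHCC97H and 63.7 CPM in MHCC97L, a log2 ratio of -0.19 that was 0.43 with the trend removed. EIF4EBP2 was at 188 CPM in MHCC97H and 177 CPM in MHCC97L, a ratio of 0.09 that was -0.48 with the trend removed. EIF4EBP2 took 77.1% of the reads of these repressors in MHCC97H and 73.5% in MHCC97L. With the trend removed, however, the ratio of EIF4EBP2 lay below that of EIF4EBP1. Per transcript length the share of EIF4EBP2 was 32.1% in MHCC97H and 28.1% in MHCC97L, so EIF4EBP1 was then the larger member in each. EIF4EBP3 had the lowest ratio of the EIF4 genes, -0.24, with 135 reads in MHCC97H and 122 in MHCC97L and an interval of -0.60 to 0.12, and was at 0.26 with the trend removed. EIF4ENIF1, which carries EIF4E into the nucleus and represses its mRNAs, was at 0.32 (0.25). Over the 15 EIF4 genes kept, 2 (13.3%) were at least 1.5-fold higher, beside 19.3% of all genes, and none lower, beside 13.8%, and the median was 0.21, or 0.19 with the trend removed.

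The factors that complete initiation, EIF5B and EIF5, were both higher in the MHCC97H library. They were the 2 of 4 EIF5 genes kept (50%) that reached 1.5-fold, beside 19.3% of all genes. EIF5B, the GTPase that joins the large subunit, was at 84.7 CPM in MHCC97H and 45.0 CPM in MHCC97L, 1.88-fold higher (1.75 to 2.02). EIF5, which triggers GTP hydrolysis by eIF2, was at 102 CPM in MHCC97H and 61.1 CPM in MHCC97L, 1.68-fold higher (1.58 to 1.79). Their log2 ratios were 0.12 and 0.09 with the trend removed, neither at 1.5-fold. EIF5A, the hypusine-carrying factor that helps ribosomes through difficult stretches, was at 1175 CPM in MHCC97H and 1100 CPM in MHCC97L, a ratio of 0.10 that was 0.42 with the trend removed. Its paralog EIF5A2 was at 12.4 CPM in MHCC97H and 9.44 CPM in MHCC97L, with a ratio of 0.39 that was 0.28 with the trend removed and turned to -0.51 with the longest transcript. EIF5A2 took 1.04% of the pair's reads in MHCC97H and 0.85% in MHCC97L, with overlapping intervals of 0.939 to 1.15 and 0.743 to 0.969. EIF6, which keeps the large subunit from joining too early, was at 235 CPM in MHCC97H and 277 CPM in MHCC97L, -0.24 on the log2 scale and 0.15 with the trend removed.

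**Figure D4:**
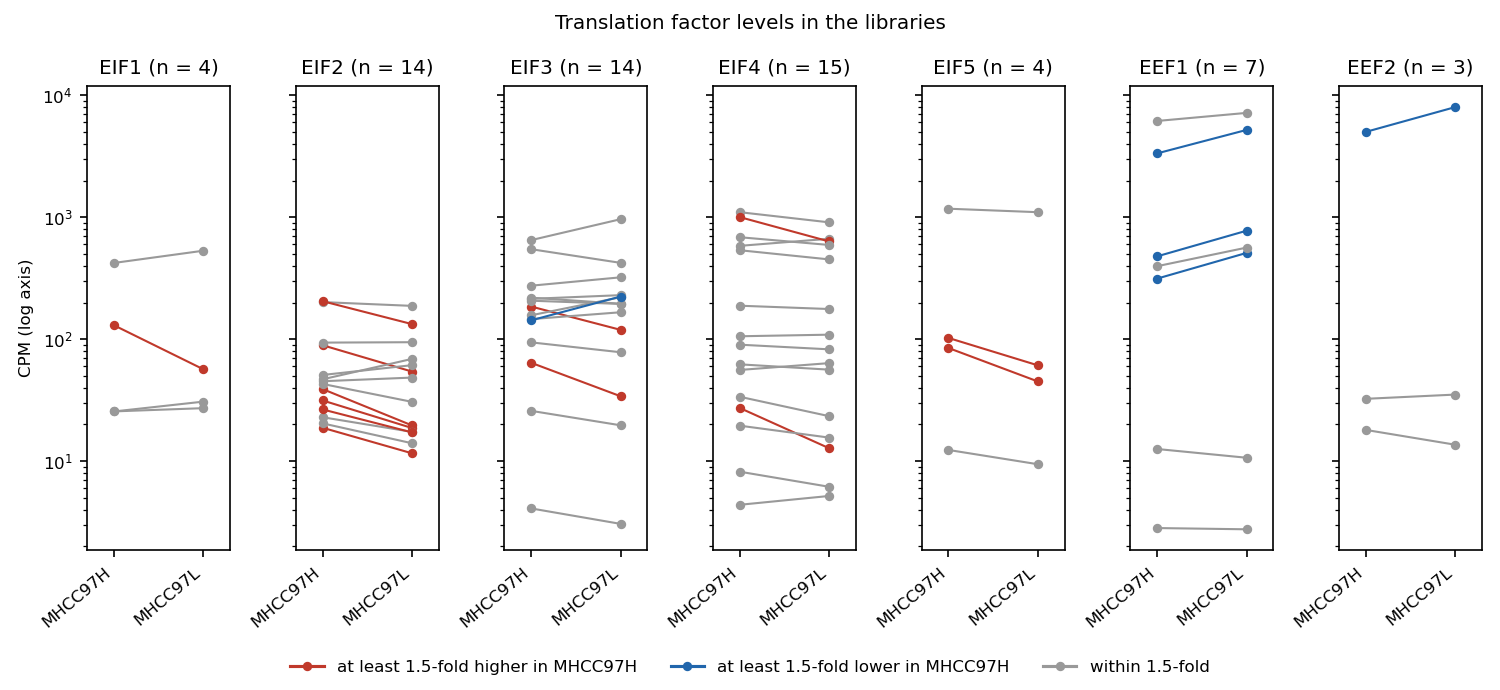
Level of each factor kept in CPM on a log axis, with MHCC97H left and MHCC97L right, in a panel for each complex (EIF6 is not drawn). Red lines mark genes at least 1.5-fold higher in MHCC97H, blue lines those at least 1.5-fold lower and grey lines the rest, and the blue lines of EEF1G and EEF2 start at 3339 and 5010 CPM in MHCC97H against 5200 and 8001 CPM in MHCC97L.

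The abundant elongation factors EEF2, EEF1A1, EEF1A2, EEF1G, EEF1D and EEF1B2 were all lower in the MHCC97H library, also with total counts in place of TMM scaling, where EEF1A1 was nearest 0 at -0.05 on the log2 scale. EEF2, the GTPase that moves the ribosome by a codon, had 154027 reads in MHCC97H and 188180 in MHCC97L. That is 5010 CPM against 8001 CPM, a log2 ratio of -0.68 (-0.69 to -0.67), and -0.42 with the trend removed. EEF1A1, which delivers aminoacyl-tRNA, was at 6159 CPM in MHCC97H and 7173 CPM in MHCC97L, a ratio of -0.22 that became -0.56 with the trend removed. Its pseudogenes had 1254 reads in MHCC97H and 1205 in MHCC97L, 0.658% and 0.709% of the combined reads. EEF1A2, the paralog found mainly in neurons and muscle, was at 314 CPM in MHCC97H and 510 CPM in MHCC97L, a ratio of -0.70 (-0.21 with the trend removed). EEF1A2 took 4.85% of the eEF1A reads in MHCC97H (4.76 to 4.95) and 6.64% in MHCC97L (6.52 to 6.75). With the trend removed the order of the pair's ratios turned, with EEF1A1 (-0.56) below EEF1A2 (-0.21).

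The exchange complex that recharges eEF1A with GTP went the same way in 3 of 3 subunits. EEF1G, the structural gamma subunit, was at 3339 CPM in MHCC97H and 5200 CPM in MHCC97L, a log2 ratio of -0.64 (-0.65 to -0.63). EEF1D, the delta subunit, which also has exchange activity, was at 478 CPM in MHCC97H and 775 CPM in MHCC97L, a ratio of -0.70 (-0.73 to -0.67). EEF1B2, a catalytic subunit, was at 397 CPM in MHCC97H and 564 CPM in MHCC97L, a ratio of -0.51, short of the 1.5-fold rule. The 3 ratios were -0.42, -0.21 and -0.41 with the trend removed. In CPM per kilobase of transcript, EEF1G had the highest level of all factors, with 2193 in MHCC97H and 3414 in MHCC97L, ahead of EEF1A1 with 1787 and 2081 and EEF2 with 1583 and 2529. EEF1A1 stood above EEF2 in MHCC97H on this scale and below it in MHCC97L. That order rests on the median length of the EEF1A1 transcripts, 3447 bases. With its longest transcript, of 4441 bases, EEF1A1 would lie below EEF2 in MHCC97H too.

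The remaining EEF genes were of low abundance and did not share this direction. EEF1E1, a scaffold of the tRNA synthetase complex, had the highest ratio of the EEF1 genes, 0.24 (0.01 to 0.47) and -0.19 with the trend removed, with 387 reads in MHCC97H and 251 in MHCC97L. EEF2K, the kinase that inactivates EEF2, was at 18.1 CPM in MHCC97H and 13.6 CPM in MHCC97L, a ratio of 0.40 (0.23 with the trend removed). The methyltransferases EEF1AKMT1 and EEF2KMT were at 0.03 and -0.12 (-0.09 and 0.06), both with intervals that included 0. With the trend removed, 7 of 7 EEF1 genes were below 0, beside 6949 of the 13856 genes fitted. EEF1AKMT1, at -0.09, had only 87 reads in MHCC97H and 65 in MHCC97L.

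The TOP list looked up here holds EEF1A1, EEF1B2, EEF1D, EEF1G, EEF2, EIF3E, EIF3F, EIF3H and EIF4B. Of these 9 genes, 7 had ratios below 0 and 2 above, and 3 (33.3%) were at least 1.5-fold lower, beside 13.8% of all genes. None was 1.5-fold lower with the trend removed. Their median log2 ratio was -0.51, against 0.25 for the 53 other factors. With the trend removed, 9 of 9 were below 0 with a median of -0.41, against 0.09 for the other factors, of which 20 were below 0. Of the 13856 genes fitted, 6949 were below 0. The start windows of EEF1D, EIF3E and EIF3H were not analysed here. EEF1A2, which had the lowest ratio of the factors (-0.70), is not on the TOP list. The 79 cytosolic ribosomal protein genes, the largest set of TOP mRNAs, had a median of -0.70 with 78 of 79 below 0, and -0.45 with 79 of 79 below 0 with the trend removed. They took 8.73% of reads in MHCC97H and 12.5% in MHCC97L. No test separates the TOP factors from the others in these libraries. The median GC content was 48.8% in the TOP list and 48.3% in the others, and the median transcript length 1523 and 2186.5 bases. Whether GC content or length bears on the difference was not tested.

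**Figure D5:**
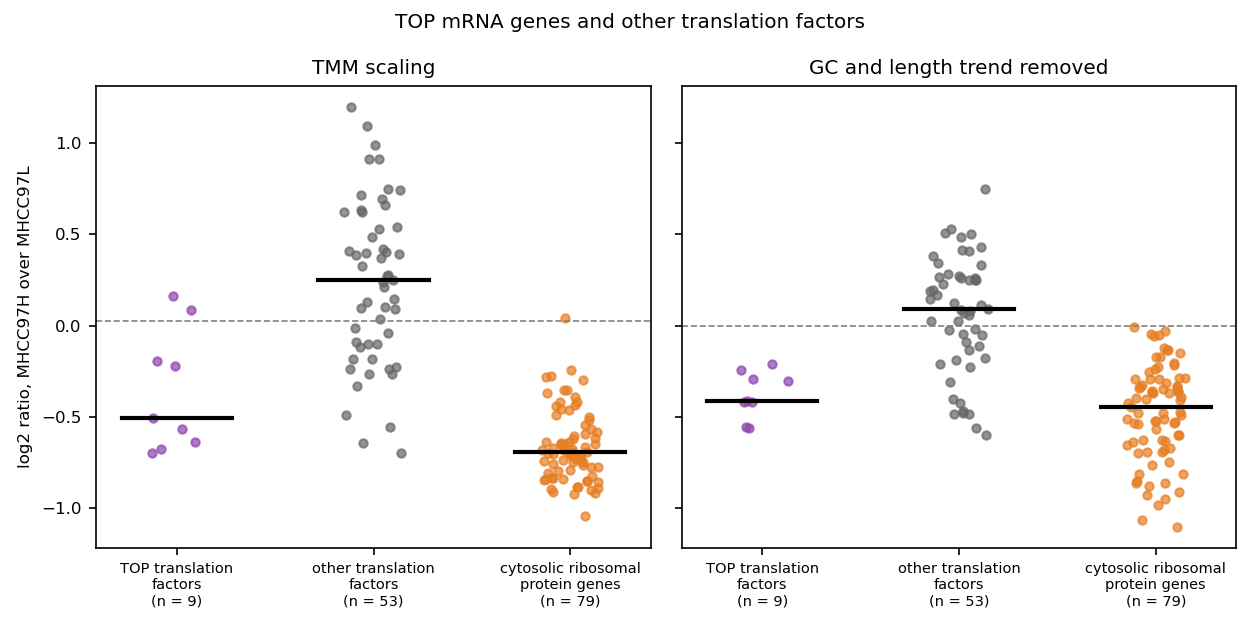
Log2 ratio of MHCC97H over MHCC97L for 9 TOP factors, 53 other factors and 79 ribosomal protein genes, with TMM scaling on the left and with the GC content and length trend removed on the right. Points are genes, black bars group medians and the dashed line the median of all genes kept. The TOP factors have medians of -0.51 and -0.41 and the other factors 0.25 and 0.09.

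Genes that act beside these factors were read from fixed lists, at 1.5-fold, where 19.3% of all genes were higher and 13.8% lower. Of 7 termination and recycling genes kept out of 8, 3 (42.9%) were higher and none lower, with a median of 0.54 that was -0.11 with the trend removed. ABCE1, which splits the ribosome after termination, was at 42.8 CPM in MHCC97H and 16.4 CPM in MHCC97L, a log2 ratio of 1.38 (0.58 with the trend removed). DENR, a partner in recycling, and ETF1, the release factor that reads stop codons, had ratios of 0.70 and 0.68 (0.20 and 0.10). Of 10 poly(A)-binding proteins and adaptors, 3 were higher and none lower, with a median of 0.19 (-0.09). These were LARP4 and LARP4B, which bind poly(A)-binding protein, with ratios of 1.22 and 0.68 (0.49 and 0.32), and PDCD4, an inhibitor of EIF4A, with 0.68 (-0.09). PAIP2B, at -0.12, was at least 1.5-fold lower with the trend removed (-0.74), beside 9.39% of all genes.

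Of 13 genes of mTOR and MNK signalling, which acts on the cap-binding arm and on TOP mRNAs, 2 (15.4%) were higher and none lower, beside those 19.3% and 13.8% of all genes, with a median of -0.12 that turned to 0.07 without the trend. RPS6KA3, an RSK kinase, was at 104.9 CPM in MHCC97H and 38.9 CPM in MHCC97L, a log2 ratio of 1.43 (0.72 with the trend removed). RPS6KB1, the S6 kinase below mTOR, had 0.96 (0.27), and MLST8, an mTOR complex subunit, had -0.51 (-0.05). Of 9 genes of the integrated stress response, the programme set off by phosphorylated EIF2S1, 1 (11.1%) was higher and 3 (33.3%) were lower, with a median of -0.34 that was 0.05 with the trend removed. PPP1R15A, the stress-induced subunit of the phosphatase that restores EIF2S1, was at 49.9 CPM in MHCC97H and 91.5 CPM in MHCC97L, a ratio of -0.87 (-0.61). DDIT3, a stress transcription factor, was at 14.4 CPM in MHCC97H and 26.2 CPM in MHCC97L, a ratio of -0.86 (-0.69). PPP1R15B, the constitutive partner of that phosphatase, had 0.90 (0.34), and the third lower gene, CHAC1, had -0.83 (-0.38), so its call was lost with the trend removed.

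Of 9 genes of the hypusine pathway, which supplies the modified lysine of EIF5A, 1 (11.1%) was higher, beside 19.3% of all genes, and none lower, beside 13.8%, with a median of 0.03 (0.26 without the trend). AZIN1, which spares ornithine decarboxylase, had a log2 ratio of 0.78 (0.13 with the trend removed), and SMS, spermine synthase, and OAZ1, an antizyme, had 0.56 and -0.48 (0.41 and -0.14). Of 5 genes of other elongation and selenocysteine steps, none was higher or lower, with SECISBP2 at 0.56, TPT1 at -0.40 and GTPBP2 at -0.17 (0.21, -0.66 and -0.08 with the trend removed). TPT1 is itself a TOP mRNA outside the TOP list. Other genes of these lists were not checked for that class. Of these, PABPC1, of the poly(A)-binding list, was at 0.17 (-0.08). Of 9 mitochondrial translation factors, 3 (33.3%) were higher and none lower, with a median of 0.52 that was -0.03 with the trend removed. These were GFM1, a mitochondrial elongation factor, with 1.09 (0.44), MTIF2, an initiation factor, with 0.89 (0.29), and MTRF1L, a release factor, with 0.59 (-0.03). None of the 3 passed 1.5-fold with the trend removed.

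Reads may be shared with other genes. In GENCODE release 29, 39 of the 64 factors overlap another annotated gene, 12 of them on the same strand, and the strand setting of the counting is not given. The table lists 85 pseudogenes of 24 factors apart from them, with 2730 reads in MHCC97H and 2377 in MHCC97L.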

How the data were processed

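Poly(A)-selected RNA from cultured MHCC97H and MHCC97L cells was extracted with Trizol, per the labels' protocols. The authors deposited unnormalised read counts for each gene and library. The submitters' processing notes name bcl2fastq, HISAT2 2.1.0, HTSeq 0.11.2 and hg19 as the build. Not given in the sources used here were the annotation, how strand was set and how reads with several alignments were treated.

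Genes with at least 1 CPM in 1 library were kept, 14578 in all. TMM factors were 1.06 in MHCC97H and 0.942 in MHCC97L, computed with edgeR 4.0.16 under R 4.3.3. Log2 ratios used a prior count of 0.5, and intervals are exact 95% Clopper-Pearson intervals of the read split. With 1 library per line no test exists and no p-value is given. A lowess trend with GC content and log2 length of GENCODE transcripts (span 0.2) was fitted over 13856 genes. Python 3.11.15 was used, with DESeq2 1.42.0 for median-of-ratios factors. The steps were tested on simulated data.

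The members and lists were chosen with earlier results of these data known. Factors at least 1.5-fold different at 5 CPM or more, the highest and lowest of each complex, and paralog pairs were named by rule, with up to 3 genes per list. CHAC1, PABPC1, PAIP2B and the other members were named after their values were seen. Start sequences came from RefSeq on GRCh38.p14, a newer build than hg19.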

Additional observations from a re-analysis of the deposited data

How the results depend on the processing

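Median-of-ratios scaling (6 lower at 1.5-fold), a 5 CPM filter (59 factors), no filter beyond 1 read (63 factors), a prior count of 2 and factor subunits alone (51 factors, with 11 higher and 5 lower at 1.5-fold) kept every count of factors within 1.5 times. Total counts in place of TMM gave 5 factors 2-fold higher, against 2, and 0 lower at 1.5-fold, against 5. With the GC trend alone removed, 0 factors were 2-fold higher, 2 were 1.5-fold higher and 3 were 1.5-fold lower. With GC content and length removed these counts were 0, 1 and 1, and with the longest transcript 0, 1 and 1, with 1 factor 2-fold lower. Shares of all genes were not computed for the GC trend alone, nor at 2-fold with total counts. Those counts of factors therefore cannot be set against all genes. EIF2A turned to -0.031 with the GC trend removed and to -0.019 with length as well, and EIF2AK2 to -0.052 with both removed and -0.035 with the longest transcript. With GC content and length removed, 8 of the named factors kept their value within its interval or their call. Another 15 lost their 1.5-fold call but kept their sign, and EIF2A and EIF2AK2 lost their call and turned sign. A further 12 moved, and EIF1B gained a call. EEF1E1, EIF4A2, EIF4E3, EIF4EBP1, EIF4EBP2, EIF4EBP3 and EIF6, none of them called, also turned sign there, and EIF4E2 and EIF5A2 did so with the longest transcript, EIF5A2 also with GC content alone. The cause of these changes was not tested. Per transcript length, a setting added after the data were seen like the longest transcript, the difference in share was -2.82 percentage points for EEF1A2, against -1.79, and 0.42 for EIF5A2, against 0.19, and for the other 6 families the difference between the libraries stayed within its counting interval, though the shares themselves moved. No paired analysis was possible because each line has 1 library, and for the same reason no library could be left out. Depth limits the factors under 10 CPM, such as EIF4EBP3 and EEF1AKMT1.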
